A study of Mus musculus with 6 samples.

Results

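The imprinted growth-control genes are 10 genes expressed mainly from the copy of 1 parent, H19, Meg3, Dlk1, Mest, Peg3, Plagl1, Ndn, Grb10, Cdkn1c and Rian. They were chosen by name, and the features used were those to which the platform annotation gives a member's symbol and no other, with the brightest taken for each gene. Of the 10 members 7 had such a feature, among 30142 genes compared. The only annotated features of H19, Meg3 and Rian also list small RNAs that these long noncoding RNAs carry (1 other symbol for H19, 3 for Meg3 and 5 for Rian), so their signal cannot be given to 1 gene and is not analysed here.

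Imprinted genes carry DNA methylation set in the egg or the sperm, and this mark decides which parental copy is transcribed. As a broad rule the paternally expressed members favour growth of the embryo and the maternally expressed ones restrain it, and many of them are active in embryonic tissues and become quiet after birth. In the maternally expressed group, Cdkn1c encodes the cyclin-dependent kinase inhibitor p57, and Grb10 encodes an adaptor that dampens signalling of the insulin and IGF1 receptors. In the paternally expressed group, Dlk1 encodes a membrane protein with EGF-like repeats, Mest an enzyme-like protein of the hydrolase fold, Peg3 and Plagl1 zinc-finger proteins, and Ndn the growth suppressor necdin.

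Cancer stem cells were taken from squamous cell carcinomas of the skin of Sfrp1-/- mice (Sfrp1_KO, 3 samples), which lack a secreted antagonist of Wnt signalling, and of wild-type mice (WT, 3 samples). All mice had received the mutagen DMBA on 3 days (PD 23, 25 and 27) and then the tumour promoter TPA 2 times a week for 30 to 40 weeks. The sort took cells without lineage markers that carried Epcam, α6 integrin (Itga6) and CD34, and RNA of each sample went onto 1 Affymetrix MTA 1.0 array, a whole-transcript array. The labels give neither the strain nor the part of Sfrp1 that is deleted, and they do not say whether samples came from separate animals or pools, so every p-value rests on a spread between samples that may be partly technical.

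Values are the deposited log2 signals. They reach 19.93, past the 16 bits of a scanner, so a difference of 1 unit need not be a doubling of RNA. Each array carries 23 antigenomic probe sets that match no mouse sequence. The brightest of them was taken as that array's background level, which lay between 4.82 and 5.10, and their median lay between 3.65 and 3.74. Sfrp1 had 5.09, 5.11 and 5.15 in Sfrp1_KO, against 5.71, 5.48 and 6.07 in WT, and the difference of -0.64 (SE 0.15) was not called by limma (adjusted p = 0.0969 over all genes). Of the sort markers, Itga6 and Cd34 were above background on all 6 arrays, whereas Epcam was above it on 1 of 3 Sfrp1_KO arrays and on 3 of 3 WT arrays. By limma Itga6 was called lower in Sfrp1_KO (difference -1.89, SE 0.31, adjusted p = 0.0292). Epcam was called lower as well (-2.56, SE 0.48, adjusted p = 0.0455), its size uncertain at the Sfrp1_KO end. Cd34 was higher but not called (1.57, SE 0.34, adjusted p = 0.0714).

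The members gave almost no signal beyond the background level, the brightest antigenomic probe set, in either genotype. All 7 were above the median of these probe sets on all 6 arrays, a level chosen after seeing the data. Of their 42 values (7 genes on 6 arrays) 1 was above the background level of its array, and 6 of the 7 genes were at or under it on every array. Over all genes compared, 54.5% were under background on all 6 arrays. None of the 7 members was called higher or lower in Sfrp1_KO at an adjusted p under 0.05 by limma, and none had an unadjusted p under 0.05. Over all genes 3.28% were called, so a count of 0 among 7 does not stand out. Adjusted p-values of the members ran from 0.668 to 0.986.

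**Figure D1:**
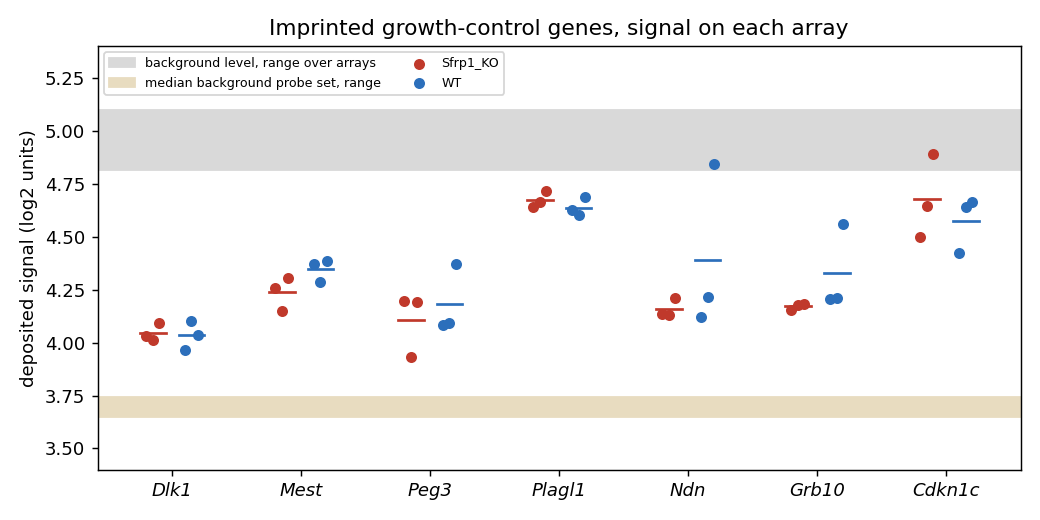
Deposited signal in log2 units (vertical axis) of the 7 measured imprinted growth-control genes on each array, with Sfrp1_KO arrays in red left of WT arrays in blue, and short lines at the group means. The points lie between 3.93 and 4.89, under the grey band of background levels (4.82 to 5.10) except for 1 WT value of Ndn and 1 Sfrp1_KO value of Cdkn1c inside it (that of Cdkn1c still under the level of its own array), and above the tan band of median background probe sets (3.65 to 3.74).

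Among the growth-restraining members, Cdkn1c had 4.50, 4.64 and 4.89 in Sfrp1_KO, against 4.42, 4.64 and 4.66 in WT. The groups overlapped, and the means were 4.68 ± 0.20 and 4.58 ± 0.13 (SD, n = 3 each, limma adjusted p = 0.851). Grb10 had 4.16, 4.18 and 4.18 in Sfrp1_KO, against 4.21, 4.21 and 4.56 in WT. Every Sfrp1_KO array lay below every WT array for Grb10, which was the case for 1 of the 7 members; the other 6 overlapped. Of all genes 10.8% were separated in this direction, 9.1% in the other and 19.9% in either. Grb10 was not called (limma adjusted p = 0.672). The WT mean of Grb10 was 4.33 ± 0.20 (SD, n = 3), and 4.21 without WT replicate 3, beside 4.17 ± 0.01 (SD, n = 3) in Sfrp1_KO.

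Plagl1, a zinc-finger transcription factor that restrains the cell cycle, had 4.64, 4.66 and 4.71 in Sfrp1_KO, against 4.63, 4.60 and 4.68 in WT. These arrays overlapped and spread little (SD 0.04 in each genotype, n = 3; limma adjusted p = 0.930). Ndn, whose product binds E2F1 and p53, had 4.13, 4.13 and 4.21 in Sfrp1_KO, against 4.12, 4.21 and 4.84 in WT. The WT value of 4.84 belonged to replicate 3, whose background level of 4.82 was the lowest of the 6 arrays, and it was the 1 member value above background (limma adjusted p = 0.718 with all arrays, and 0.987 without that one).

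Dlk1, which is known from fat cell precursors and fetal tissues, had 4.03, 4.01 and 4.09 in Sfrp1_KO, against 3.96, 4.10 and 4.04 in WT. The groups overlapped throughout (limma adjusted p = 0.986). Mest had 4.26, 4.15 and 4.31 in Sfrp1_KO, against 4.37, 4.29 and 4.39 in WT, and Sfrp1_KO replicate 3 stood above WT replicate 2 (limma adjusted p = 0.668). Peg3 had 4.20, 3.93 and 4.19 in Sfrp1_KO, against 4.08, 4.09 and 4.37 in WT, again with overlap (limma adjusted p = 0.903). For 4 of the 7 members, Mest, Peg3, Ndn and Grb10, the highest of the 6 values came from WT replicate 3.

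Since both genotypes lie at or under background for these genes, no fold changes are given. The standard errors of the differences (Sfrp1_KO minus WT) were 0.07 to 0.19 log2 units, and the 95% intervals of all 7 lay within -0.70 to 0.41. The intervals bound the difference in signal, which at this level need not follow the RNA. The median difference was -0.07 over the members and -0.01 over all genes, with means lower in Sfrp1_KO for 4 members and higher for 3. In bulk RNA, fewer cells that express a gene and less RNA in each cell cannot be told apart. For comparison, 8 of 9 muscle markers, among them Myod1 and Pax7, were under background on all 6 arrays, and Acta2 was above it on all 6. Values ran from 3.85 to 8.33 over the 9 muscle markers and from 3.93 to 4.89 over the members.

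Imprinted genes lie in groups on the chromosomes, and the members' regions were read in the order of the RefSeq annotation. In the region of chromosome 7 from H19 to Nap1l4, which holds Igf2 and Cdkn1c, 19 of 27 annotated genes were measured. Of these, 6 were above background on all 6 arrays and 13 were under it on all 6, and none was called by limma (lowest adjusted p = 0.231, and 1 unadjusted p under 0.05). Igf2, the fetal growth factor that shares its control region with H19, was at 4.13 ± 0.15 in Sfrp1_KO and 4.09 ± 0.06 in WT (SD, n = 3 each), under background on every array. Phlda2, a maternally expressed growth restrainer next to Cdkn1c's neighbour Slc22a18, was above background on all arrays, with 7.33, 6.22 and 6.17 in Sfrp1_KO, against 6.73, 7.04 and 7.86 in WT. The genotypes overlapped for Phlda2 (difference -0.64, SE 0.40, limma adjusted p = 0.601). The tetraspanin gene Cd81 was at 11.61 ± 0.24 in Sfrp1_KO and 11.35 ± 0.24 in WT (SD, n = 3 each), and did not pass (limma adjusted p = 0.618). Genes above and under background thus lay side by side in this region, with Cdkn1c and Igf2 among those under it.

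**Figure D2:**
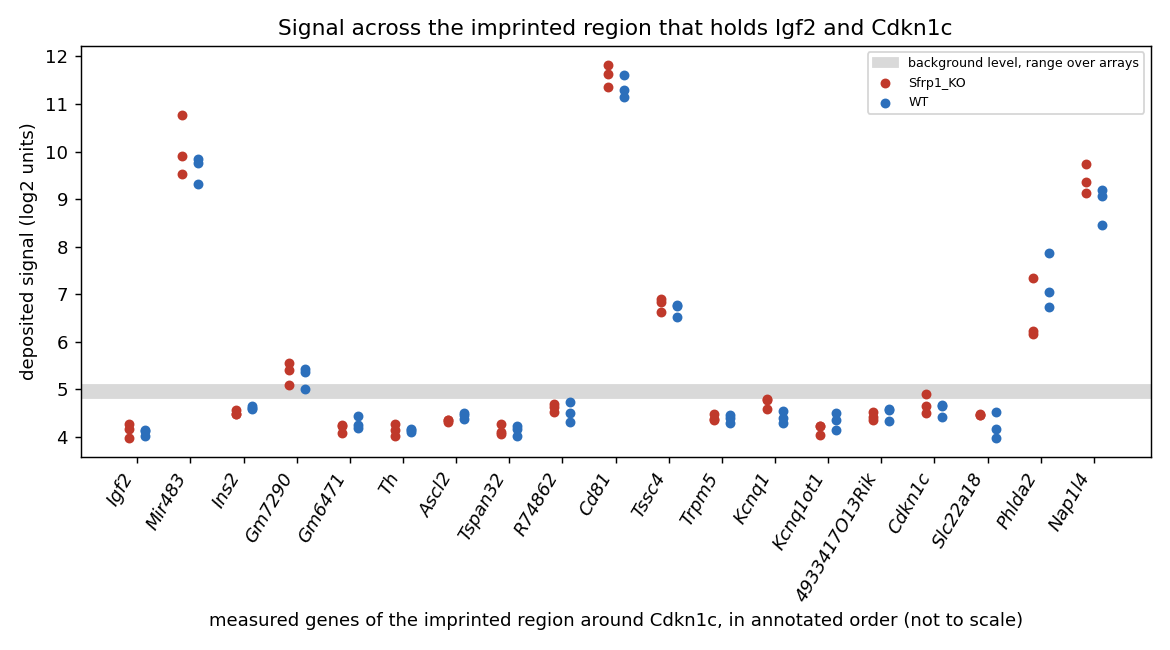
Deposited signal in log2 units (vertical axis) of the 19 measured genes from Igf2 to Nap1l4 in annotated order (horizontal axis, not to scale), with each Sfrp1_KO array in red left of each WT array in blue. Cd81, Tssc4, Phlda2, Nap1l4, Mir483 and Gm7290 stand above the background level of each array, and Igf2, Cdkn1c and the other 11 do not. The grey band spans the background levels of all arrays, and an Sfrp1_KO value and a WT value of Gm7290 lie inside it.

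The region of chromosome 12 from Dlk1 to Dio3, where Meg3 and Rian lie, is dense in small RNA genes. Of 103 annotated genes 57 were measured, 53 of them small RNAs, and 36 were under background on all 6 arrays. None was called by limma (lowest adjusted p = 0.231, and 2 unadjusted p under 0.05). Dio3, which encodes the deiodinase that inactivates thyroid hormone, was under background on every array, as was Dlk1 at the other end. A few small RNA features were bright, such as Mir494 at 8.57 in Sfrp1_KO and 8.56 in WT. From Ndn to Snrpn on chromosome 7, 14 of 37 annotated genes were measured, none above background on all 6 arrays and none called by limma (lowest adjusted p = 0.465, no unadjusted p under 0.05), and the adjoining paternally expressed genes Magel2 and Mkrn3 were under background. Around Peg3, the genes Zim1 and Usp29 were under background on all arrays, while Peg3os, annotated as antisense to Peg3, was above it on all 6, at 6.02 ± 0.32 in Sfrp1_KO and 6.29 ± 0.44 in WT (SD, n = 3 each, limma adjusted p = 0.775). Probes of overlapping genes may share signal.

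Of 36 nearest measured neighbours of the 10 members, 9 were above background on all 6 arrays, 27 on none, and none was called by limma (1 had an unadjusted p under 0.05). That gene was Ltv1 beside Plagl1, a ribosome assembly factor, at 7.24 ± 0.13 in Sfrp1_KO and 7.87 ± 0.22 in WT (SD, n = 3 each, limma adjusted p = 0.0642). Next to Mest, Copg2, which encodes a coat protein of Golgi vesicles, had 5.72, 5.83 and 5.59 in Sfrp1_KO, against 5.93, 5.70 and 5.61 in WT. Mir335, which lies in an intron of Mest, had 6.63, 6.07 and 6.69 in Sfrp1_KO, against 6.68, 7.11 and 6.33 in WT. Its feature was above background on all 6 arrays where that of its host was on none, the genotypes overlapped (limma adjusted p = 0.792), and the array does not tell the hairpin from the mature forms. The mature forms, shown because this feature inside a member gene was above background where the member's own was not, are given 5′ to 3′ from RefSeq (GRCm38.p6, plus strand) with the seed, bases 2 to 8, in capitals; they lie at chr6:30741314-30741336 and chr6:30741354-30741375.
mmu-miR-335-5p: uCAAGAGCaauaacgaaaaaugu
mmu-miR-335-3p: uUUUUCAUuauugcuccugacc

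Other imprinted genes, listed from general knowledge of the mouse and in part imprinted in few tissues, were read for context. Of 59 listed genes 52 were measured, 33 of them under background on all 6 arrays and 14 above it on all 6. By limma 2 rose in Sfrp1_KO and none fell, with 4 unadjusted p-values under 0.05, where 1.83% of all genes were called higher and 1.45% lower. The median difference of the 52 was 0.00, against -0.01 over all genes. The share called is close to that of all genes.

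The 2 genes that rose were Rasgrf1 and Atp10a. Rasgrf1, a paternally expressed exchange factor that activates Ras, had 6.36, 7.37 and 6.36 in Sfrp1_KO, against 4.87, 4.94 and 4.98 in WT. The groups did not overlap, and WT values were near background, above it on 1 of 3 arrays (difference 1.76, SE 0.28, limma adjusted p = 0.0252), so the size of this difference is uncertain at its WT end. The call ended without any 1 of the WT arrays or Sfrp1_KO replicate 1 (adjusted p = 0.0582 to 0.0794) and with replicate number as a blocking factor (adjusted p = 0.0551). Atp10a, a phospholipid flippase gene reported as maternally expressed, had 6.69, 6.87 and 6.06 in Sfrp1_KO, against 4.85, 5.37 and 5.09 in WT. All Sfrp1_KO arrays were higher (difference 1.44, SE 0.24, limma adjusted p = 0.0308). WT values of Atp10a were also near background, above it on 2 of 3 arrays, so the size is uncertain at that end. The Atp10a call ended without any 1 WT array, Sfrp1_KO replicate 1 or Sfrp1_KO replicate 2 (adjusted p = 0.0528 to 0.120) and with the block (adjusted p = 0.0520). Igf2r, the maternally expressed receptor that clears IGF2, had 6.88, 7.19 and 6.62 in Sfrp1_KO, against 6.30, 6.14 and 6.10 in WT. It did not pass (difference 0.72, SE 0.15, limma adjusted p = 0.0684), but did without Sfrp1_KO replicate 3 (0.85, adjusted p = 0.0463).

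**Figure D3:**
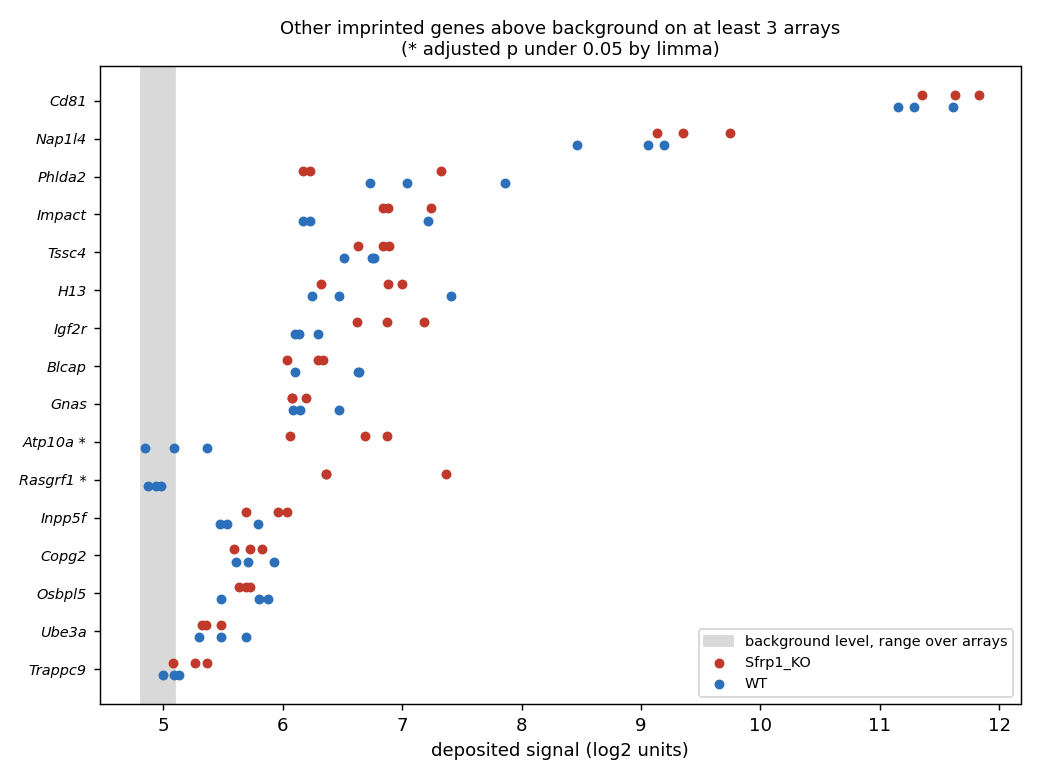
Deposited signal in log2 units (horizontal axis) of the other imprinted genes above background on at least 3 arrays, with the 3 Sfrp1_KO arrays in red above the 3 WT arrays in blue for each gene. Rasgrf1 and Atp10a, marked with a star, are the 2 called by limma; their WT points lie in or next to the grey band of background levels, and their Sfrp1_KO points lie at 6.06 and higher.

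Cell type markers differed between the same arrays as Rasgrf1 and Atp10a, among them keratinocyte markers, a list that holds the sort markers Epcam and Itga6. Of 12 measured fibroblast and mesenchymal markers 5 rose by limma (Vim, Fn1, S100a4, Pdgfrb and Thy1) and 1 fell (Fbln1). Means of Col1a2, Col3a1 and Dcn were higher in Sfrp1_KO and those of Col1a1, Lum and Postn lower, without a call. The log2 values of the 12 were summed on each array, those under background included, so the sums are not total signal. These sums were 93.5 to 102.8 in Sfrp1_KO and 73.1 to 85.7 in WT. Of 13 keratinocyte markers 9 fell by limma, with sums of 72.2 to 73.1 in Sfrp1_KO and 120.7 to 129.4 in WT. Among all genes 1.83% were called higher and 1.45% lower. None of 10 leukocyte markers was called by limma (6 unadjusted p under 0.05). Their sums were 46.9 to 53.0 in Sfrp1_KO and 44.3 to 45.3 in WT. Lyz2, C1qa, C1qb, Laptm5, Itgam and Csf1r were higher on every Sfrp1_KO array than on any WT array (limma adjusted p = 0.0941 to 0.203). Of all genes 9.1% were separated in this direction. Ptprc, Cd3e, Adgre1 and Cd68 overlapped. Of the 10 markers 5 were under background on all 6 arrays: Itgam, Csf1r, Cd3e, Adgre1 and Ptprc, the pan-leukocyte antigen gene. C1qa, C1qb and Laptm5 were above it on 2 Sfrp1_KO arrays and on no WT array. The part of these markers in the rise of Rasgrf1 and Atp10a was not tested. Of the 7 members 6 stayed at or under background in the arrays of both genotypes. Vim, the fibroblast and mesenchymal marker with the largest rise, was at 11.19 ± 0.70 in Sfrp1_KO and 5.38 ± 0.50 in WT (SD, n = 3 each).

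The factors that keep imprints through cell division were measured in part above background. Of 12 such genes 8 were above it on all 6 arrays, and none was called by limma (1 unadjusted p under 0.05). Trim28, the corepressor that imprint-binding zinc-finger proteins recruit, had 8.28, 8.47 and 7.96 in Sfrp1_KO, against 7.86, 7.88 and 7.50 in WT (difference 0.49, SE 0.17, limma adjusted p = 0.237). Arid4a, a chromatin protein of the same list, was at 5.81 in Sfrp1_KO and 5.69 in WT (limma adjusted p = 0.637). Zfp57, the zinc-finger protein that binds methylated imprinting control regions in embryonic cells, was under background on every array. Ctcf, which insulates the unmethylated H19 control region, was at 5.97 ± 0.03 in Sfrp1_KO and 5.97 ± 0.04 in WT (SD, n = 3 each, limma adjusted p = 0.996).

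Of 13 measured partners through which members act on growth, 2 fell and none rose by limma, with 5 unadjusted p-values under 0.05. Over all genes 1.45% were called lower and 1.83% higher. Ccne1, which encodes cyclin E1, a partner of the kinase CDK2 that p57 inhibits, had 5.05, 4.76 and 4.71 in Sfrp1_KO, against 5.50, 5.90 and 5.88 in WT. All Sfrp1_KO values were under background, so the size of the fall is uncertain at that end. The WT mean of Ccne1 lay 0.69 above the mean background level of the Sfrp1_KO arrays, with no allowance for the spread between arrays. Ccne1 was called lower (limma adjusted p = 0.0279, and 0.108 with the replicate block). The 95% interval of its difference was -1.27 to -0.56, so a fall smaller than 0.69 is not excluded. Notch1, the receptor that DLK1 can bind, had 5.71, 5.66 and 5.47 in Sfrp1_KO, against 7.13, 6.31 and 7.10 in WT, and fell by 1.23 (SE 0.23, limma adjusted p = 0.0440, and 0.0900 with the block). Both calls also ended without single arrays, WT replicate 3 and each of the Sfrp1_KO arrays for both genes, with WT replicate 2 in addition for Ccne1 and WT replicate 1 for Notch1 (adjusted p up to 0.161). Igf1r, the receptor whose signal GRB10 dampens, was at 6.84 ± 0.25 in Sfrp1_KO and 6.18 ± 0.28 in WT (SD, n = 3 each) and did not pass (difference 0.66, SE 0.18, limma adjusted p = 0.151).

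Promoter windows of 250 bases before to 50 after a gene's start, from RefSeq (GRCm38.p6), were found for 8 of the 10 members (12 windows). These held 0 to 45 CG pairs with a median of 12, against a median of 7 over 32851 windows of all genes, with the most in Grb10. Both strands were searched for 3 motifs. Members were counted as genes, some with several windows, but the shares are of single windows, so counts and shares are not directly comparable. TGCCGC, the ZFP57 motif, stood in windows of 4 members (Grb10, Meg3, Mest and Plagl1) and in 11.6% of all windows. GGGGCCCC, the core bound by PLAGL1, which reads the same on both strands, stood in the window of Peg3 and in 1.08% of all windows. AAGATGG, the YY1 motif, stood in none of the members' windows and in 6.34% of all windows. The window of Rasgrf1 also held GGGGCCCC. Both windows are printed because they hold this motif, and nothing about PLAGL1 is drawn from it. They are read on the gene's strand, with GGGGCCCC in capitals, the Rasgrf1 window at chr9:89909525-89909824 (plus strand) and the Peg3 window at chr7:6730370-6730669 (minus strand).
Rasgrf1: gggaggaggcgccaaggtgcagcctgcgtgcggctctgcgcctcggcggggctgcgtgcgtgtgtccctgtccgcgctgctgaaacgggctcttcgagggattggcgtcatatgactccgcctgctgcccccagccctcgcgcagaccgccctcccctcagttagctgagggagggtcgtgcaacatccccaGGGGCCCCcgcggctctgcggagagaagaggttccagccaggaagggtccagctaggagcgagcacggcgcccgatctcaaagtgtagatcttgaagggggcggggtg
Peg3: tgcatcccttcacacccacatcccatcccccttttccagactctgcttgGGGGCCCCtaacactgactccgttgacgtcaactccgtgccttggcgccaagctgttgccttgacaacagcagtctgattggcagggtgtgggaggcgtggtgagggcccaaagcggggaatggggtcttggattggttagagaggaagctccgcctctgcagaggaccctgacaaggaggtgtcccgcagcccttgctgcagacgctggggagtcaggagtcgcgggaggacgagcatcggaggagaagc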

How the data were processed

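Per the submitters' processing notes, the authors made the deposited log2 values with RMA in Affymetrix Expression Console; their versions and the annotation build were not given in the sources used here. Groups came from the sample titles. Of 65956 non-control features 30604 had 1 gene symbol, 2146 had several and 33206 had none listed. Symbols were updated through RefSeq gene identifiers (GRCm38.p6; 22818 features matched), which left 30142 genes at their brightest feature, with no filter on dim ones. Sfrp1_KO was compared with WT by limma 3.58.1 in R 4.3.3 (lmFit, eBayes, two-sided, Benjamini-Hochberg over all genes, called under 0.05). On simulated data for this comparison (30142 genes) it recovered 34, 47, 50 and 49 of 50 genes changed by 1, 2, 3 and 4 log2 units; these genes were drawn from above the median level, so recovery at the members' level was not tested.

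Members and lists were chosen with earlier results of these data known. Besides the members, named genes were Sfrp1 and genes of the members' regions and neighbours. Called genes of the lists of other imprinted genes, imprint factors and growth partners were also named (otherwise those with the smallest p). Igf2r, Igf1r, Zfp57, Ctcf, the sort markers and the cell type markers were named outside this rule. Not every cell type marker, called or not, was named. No member was called, so genes of like pattern were not looked for. Alternatives were the replicate block, dim genes left out, the mean of all features, quantile normalization once more, array weights, trend and robust options, all features and each array left out. The number of arrays limits the precision.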

Additional observations from a re-analysis of the deposited data

How the results depend on the processing

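None of the 7 members was called under any of the 12 alternatives that kept them (84 adjusted p-values, from 0.462 to 0.998, by limma); leaving out dim genes removed all 7 and gave no value. With the median background probe set of each array in place of the highest, a choice made after seeing the data, 7 members were above background on all 6 arrays instead of 0, so whether the members carry signal depends on that level. Over all genes the counts of 552 higher and 437 lower became 297 and 238 with the replicate number as a block, and single arrays left out gave 191 to 487 higher and 100 to 407 lower. Of other imprinted genes 0 were called higher with the block, and 0 to 3 with single arrays left out (0 without any 1 WT array or Sfrp1_KO replicate 1, 1 without Sfrp1_KO replicate 2 and 3 without Sfrp1_KO replicate 3). The correlations of same-numbered samples' deviations from their group means across genes were 0.18, -0.12 and 0.17 for replicates 1, 2 and 3. Not every sample correlated best with its own number. With so few arrays these correlations cannot tell whether same-numbered samples share more than a number. Igf2r passed with dim genes left out (adjusted p = 0.0484), after quantile normalization once more (0.0211) and with array weights (0.0351), all by limma. Sfrp1 stayed lower and not called in every alternative (limma adjusted p = 0.0547 to 0.292). The cause of these changes was not tested. Signal over background limits what can be said of the members.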
